A study of Mus musculus with 2 samples.

Results

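Cxcl16, Cxcr6, Adam10 and Adam17 are a chemokine, its receptor and the pair of proteases known to cut it from the cell surface. These 4 genes were chosen by name among the 32285 genes in the count matrices, of which 26752 had at least 1 UMI (unique molecular identifier, the count of 1 captured RNA molecule) in the cells kept here. Their RNA was measured by droplet single-cell RNA sequencing in mouse pancreatic tumours that grew from KPC cells placed in the pancreas of the host mouse. KPC cells are a mouse pancreatic cancer line, and both groups share it. One tumour library came from KPC-shV cells, which hold a control hairpin, and the other from KPC-shZEB1 cells, which hold a hairpin against Zeb1, a transcription factor of the epithelial-mesenchymal transition. Both lines were made with lentivirus and drug selection, with several lines picked per construct and the one used here not named. The study states that the sequenced tumours came from mice treated with gemcitabine, which the labels do not mention. It describes the mice of that experiment as immunocompetent. The protocol gives an n of 1 for each group. The methods name young C57BL/6J, BALB/c and NSG mice for the orthotopic models without tying a strain to these samples. The days of growth were not given in the sources used here.

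CXCL16 is unusual among chemokines because it is made as a transmembrane protein, with its chemokine domain carried on a mucin-like stalk. ADAM10 cuts it from resting cells and ADAM17, also called TACE, from stimulated ones, which frees a soluble form that attracts cells bearing CXCR6, a G protein-coupled receptor of effector and resident T cells, natural killer (NK) cells and some innate lymphocytes. Macrophages and dendritic cells are well-known sources of CXCL16, and RNA counts cannot tell its bound form from its soluble form.

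In the GRCm38 (mm10) annotation, Cxcl16 (ENSMUSG00000018920) lies on the minus strand at chr11:70453983-70459984 and overlaps Zmynd15 on the other strand. Cxcr6 (ENSMUSG00000048521) is at chr9:123806475-123811760 on the plus strand and overlaps Fyco1 on the minus strand. Adam10 (ENSMUSG00000054693) is on the plus strand of the same chromosome at chr9:70678997-70780229. Adam17 (ENSMUSG00000052593) is on the minus strand at chr12:21323509-21373632 and overlaps Iah1 and Gm22766 on the plus strand. The sources used here do not say whether strand and introns were used in the counting, so reads in these overlaps could be credited to either gene.

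The 250 bases before the RefSeq start of the receptor and of both proteases are shown 5′ to 3′ because they differ in the feature that commonly separates cell type-restricted from widely used promoters, the number of CpG dinucleotides, which are in capitals. The letters are those of RefSeq for GRCm38.p6. The Cxcr6 window is chr9:123806227-123806476 (plus strand), the Adam10 window chr9:70678732-70678981 (plus strand) and the Adam17 window chr12:21373633-21373882 (minus strand).
Cxcr6: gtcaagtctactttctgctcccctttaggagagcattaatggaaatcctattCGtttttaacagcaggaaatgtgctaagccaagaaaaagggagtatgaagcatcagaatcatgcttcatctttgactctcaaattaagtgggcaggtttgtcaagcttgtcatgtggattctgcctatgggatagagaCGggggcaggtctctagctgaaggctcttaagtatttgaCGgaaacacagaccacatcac
Adam10: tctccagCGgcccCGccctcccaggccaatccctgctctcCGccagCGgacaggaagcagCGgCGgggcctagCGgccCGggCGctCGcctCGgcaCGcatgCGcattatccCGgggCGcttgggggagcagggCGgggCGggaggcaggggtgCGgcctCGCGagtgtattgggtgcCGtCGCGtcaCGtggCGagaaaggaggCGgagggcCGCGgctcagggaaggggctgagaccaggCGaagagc
Adam17: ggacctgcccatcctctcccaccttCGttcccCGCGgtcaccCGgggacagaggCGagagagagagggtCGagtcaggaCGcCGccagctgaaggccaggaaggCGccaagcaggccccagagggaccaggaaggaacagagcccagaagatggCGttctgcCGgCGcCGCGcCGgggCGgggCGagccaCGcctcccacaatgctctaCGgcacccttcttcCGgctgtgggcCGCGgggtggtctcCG

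The Cxcr6 window held 3 CpG and 43.6% G or C, and 62.2% of the 32851 windows of this length had more CpG. Adam10 had 29 CpG and 74.0% G or C, with more CpG in 5.94% of windows. For Adam17 the values were 23 CpG and 70.4% G or C, with more CpG in 12.0% of windows. The median window had 6 CpG, so the receptor stood below it and both proteases far above it. This is a description of the letters (CG reads the same on both strands) and no measure of activity.

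After filters on genes, UMIs, mitochondrial share and doublets, the library labelled KPC-shV kept 11398 cells holding 101201508 UMIs and that labelled KPC-shZEB1 kept 12104 cells holding 118943000 UMIs. The libraries shared 46 cell barcodes, 36 of them among kept cells. Cells were clustered over both libraries and the clusters named from marker genes, as X-like classes. In the 8 classes looked at for this, every marker was found in a larger share of cells inside the class than outside it, in both libraries. These were the tumour-like, granulocyte-like, monocyte-macrophage-like, fibroblast-like, endothelial-like, B-like, T-like and NK-like classes. The dendritic-like and smaller classes also had fixed markers and were not looked at in this way. The same markers gave the names, so this is no independent check of them. Some margins were thin: in KPC-shV, S100a9 had a UMI in 97.1% of granulocyte-like cells and 94.0% of other cells. Levels are given as CPM, the UMIs of a gene for every 1000000 UMIs of all genes in the class. Brackets hold 95% intervals that cover counting error only (exact Poisson for a level, exact conditional for a ratio, Clopper-Pearson for a share). With 1 library per group there is no replicate check and no test of a condition, and a ratio, always KPC-shZEB1 over KPC-shV, compares 2 libraries. A gene with at least 30 UMIs is called past the fold where its ratio is at most 0.8 or at least the inverse of 0.8.

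Zeb1, the gene targeted by the hairpin, stood at 167 CPM (163–171) in KPC-shV and 190 CPM (185–194) in KPC-shZEB1 within tumour-like cells, a ratio of 1.14 (1.10–1.18), so it was not lower where the label names its hairpin. Libraries are therefore named by their labels throughout, and every direction given here is one between labelled libraries, not one shown by these counts to follow loss of Zeb1. The study lists its own measure of the knockdown in KPC cells and Zeb1 staining of tumours. Zeb1 was also higher in monocyte-macrophage-like (ratio 1.55) and granulocyte-like cells (1.48), and T-like cells had 1360 and 1526 CPM. The part of free RNA in the tumour-like Zeb1 level was not tested. The classes themselves differed in size: T-like cells were 3.56% of kept cells in KPC-shV and 10.6% in KPC-shZEB1, and granulocyte-like cells 60.3% and 37.8%. Shares of cells and of UMIs across classes carry these sizes with them.

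Cxcl16 was highest in monocyte-macrophage-like cells, with 331 CPM (323–338) for the label KPC-shV and 385 CPM (379–391) for the label KPC-shZEB1. Dendritic-like cells followed at 236 CPM (212–262) and 336 CPM (320–353), then tumour-like cells at 119 CPM (115–123) and 154 CPM (150–158). The order of these classes was the same in both libraries, and the intervals of neighbours did not overlap. Fibroblast-like cells, at 97.5 CPM (91.7–104) and 115 CPM (109–121), stood next below the tumour-like class. The other classes lay far lower: in KPC-shV, endothelial-like, NK-like, granulocyte-like, B-like and T-like cells ran from 33.6 to 26.0 CPM with overlapping intervals, so no order can be read among them, and in KPC-shZEB1 they ran from 66.3 CPM in endothelial-like to 38.5 CPM in T-like cells.

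**Figure D1:**
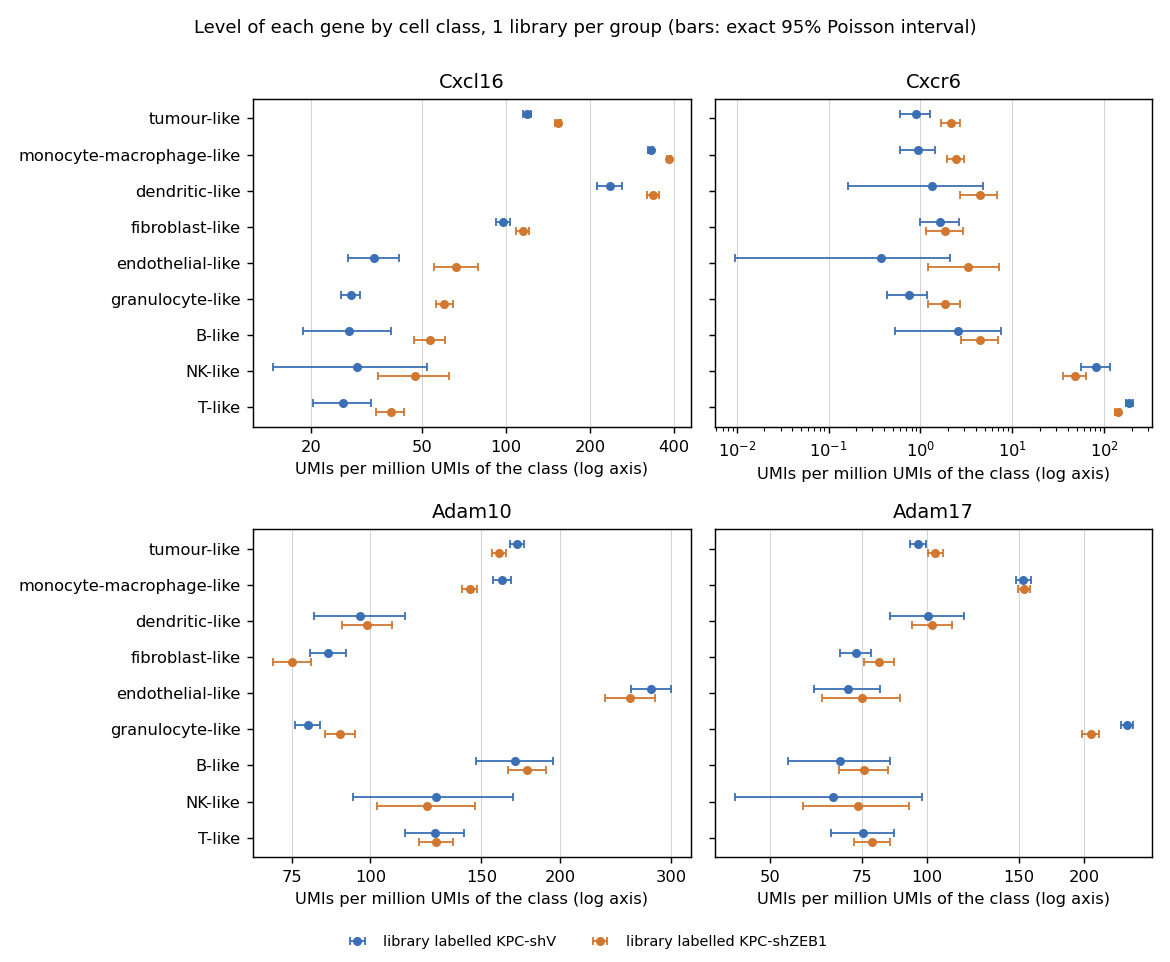
Level of each gene in 9 cell classes, in CPM on a log axis, with 1 point per library (blue KPC-shV, orange KPC-shZEB1) and bars for the exact 95% Poisson interval. Cxcl16 is highest in monocyte-macrophage-like cells, Cxcr6 in T-like cells, Adam10 in endothelial-like cells and Adam17 in granulocyte-like cells, in both libraries.

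A Cxcl16 UMI was found in 77.4% of monocyte-macrophage-like cells of KPC-shV and 87.8% of those of KPC-shZEB1, and in 69.2% and 77.4% of tumour-like cells. T-like cells, which are not a usual source of the chemokine, gave 11.8% and 19.3%, and granulocyte-like cells 8.69% and 16.2%. Depth differed widely, with median UMIs per cell of 13286 and 14484 in monocyte-macrophage-like cells, 23416.5 and 23808 in tumour-like cells, and 5372 and 4905 in T-like cells. Thinned to 1000 UMIs per cell, the shares were 25.2% and 27.2% of monocyte-macrophage-like cells, 13.4% (11.7–15.2) and 13.6% (11.9–15.5) of tumour-like cells, and 2.22% and 3.52% of T-like cells. At equal depth the tumour-like share therefore lay above the T-like share in each library but differed little between libraries.

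Within the monocyte-macrophage-like class, Cxcl16 differed more between clusters than between libraries. Cluster 4, led by Mmp12 (macrophage elastase) and Dcstamp (a cell fusion receptor), had 458 and 470 CPM, a ratio of 1.03 (0.994–1.06). Cluster 8, led by Lyve1 and F13a1, genes of resident macrophages, had 275 and 246 CPM, a ratio of 0.894 (0.833–0.961). Cluster 9, led by Ccr2 and Chil3, genes of recruited monocytes, had 142 and 230 CPM, a ratio of 1.62 (1.49–1.76). The class ratio of 1.16 (1.13–1.20) thus joined clusters that went different ways, and cluster 4, the highest, made up 37.7% of the class in KPC-shV and 50.7% in KPC-shZEB1. With the clusters weighted alike in both libraries, a step chosen after seeing the data, the class ratio was 1.06.

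Dendritic-like cells were split in the same manner. Cluster 21, with markers of mature dendritic cells, had 464 CPM in KPC-shV and 472 CPM in KPC-shZEB1, a ratio of 1.02 (0.863–1.20). Cluster 17, with markers of type 2 dendritic cells, had 149 and 285 CPM, a ratio of 1.91 (1.62–2.27). The mature cells were thus at one level in both libraries within counting error and the type 2 cells were not.

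Tumour-like cells had a Cxcl16 ratio of 1.29 (1.24–1.35), just past the fold, which 22.1% of the genes tested in that class also passed on the higher side. By cluster the levels were 151 and 185 CPM in cluster 7, 170 and 180 CPM in cluster 12, 70.7 and 90.7 CPM in cluster 13, and 50.6 and 112 CPM in cluster 18. Cluster 27, with 23 cells, all of KPC-shV, and leading genes that include Adgrl4 and Cyyr1, genes of endothelial cells, had 110 CPM. The library labelled KPC-shZEB1 was the higher in each cluster that held both libraries, although the interval of cluster 12 (0.885–1.27) included 1, and cluster 18 held 10 cells of KPC-shV and 232 of KPC-shZEB1. Without clusters that came almost wholly from 1 library the ratio was 1.38. That value carries the make-up of the class: cluster 13, low in Cxcl16, held 39.8% of tumour-like UMIs in KPC-shV and 16.2% in KPC-shZEB1. With the clusters weighted alike, a step chosen after seeing the data, the ratio was also past the fold upward.

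The ratio was above 1 in the others of the 9 larger classes too, including those low in Cxcl16. Plasmacytoid dendritic-like cells, a small class, had a ratio of 0.968 (0.317–3.51), from 17 UMIs. Granulocyte-like cells had 27.7 CPM (25.6–30.0) and 60.0 CPM (56.1–64.2), a ratio of 2.16 (1.95–2.40), in a class where 46.0% of tested genes were past the fold upward. The ratio was 1.97 (1.49–2.62) in endothelial-like cells (24.8% of tested genes higher), 1.95 (1.35–2.92) in B-like cells (24.9%) and 1.48 (1.14–1.94) in T-like cells (20.8%). It was 1.42 (1.27–1.60) in dendritic-like cells (23.3%) and 1.62 (0.830–3.46) in NK-like cells (25.4%). Cxcl16 was past the fold upward in 7 of the 9 classes and downward in 0, the exceptions being the monocyte-macrophage-like and fibroblast-like classes. The ratios of low classes moved most with the treatment of background: after subtraction of the T-like level they were 12.7 in granulocyte-like, 11.9 in B-like and 3.68 in endothelial-like cells. In KPC-shV the T-like level was 26.0 CPM (20.3–32.8), against 27.7 CPM in granulocyte-like and 27.3 CPM (18.7–38.5) in B-like cells. With overlapping intervals, what was left in those classes of KPC-shV was not distinguishable from 0, so the values 12.7 and 11.9 have no reliable size.

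Free RNA would add a like number of UMIs to each droplet, so its CPM would be lower in cells of greater depth. Granulocyte-like cells had 0.0923 and 0.185 Cxcl16 UMIs per cell, at median depths of 3147 and 2887 UMIs, and tumour-like cells 2.73 and 3.66. Subtraction of the CPM of a shallow class thus takes more from deep classes than such a floor would. When the CPM of granulocyte-like cells was subtracted, a step chosen after seeing the data, the Cxcl16 ratio of tumour-like cells was 1.03 and that of monocyte-macrophage-like cells 1.07. That step also took endothelial-like cells to 1.06 and fibroblast-like cells to 0.785. With the level of T-like cells subtracted instead, the tumour-like ratio was 1.24. In 12 of 14 alternatives, all but these subtractions of a class level, the tumour-like ratio stayed past the fold upward. Subtraction of background per cell was among the 12. Its background for Cxcl16 was the T-like class in both libraries, at 0.175 and 0.234 UMIs per cell. Epithelial RNA outside the tumour-like class also differed between the libraries: Krt8, a keratin, had a UMI in 43.6% of other cells in KPC-shV and 56.1% in KPC-shZEB1. C1qa, a marker of the monocyte-macrophage-like class, differed more, with a UMI in 42.8% and 74.5% of cells outside that class. S100a8, a marker of the granulocyte-like class, went the other way, at 86.4% and 64.1% of cells outside it. The part of free RNA in the Cxcl16 difference was not tested.

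**Figure D2:**
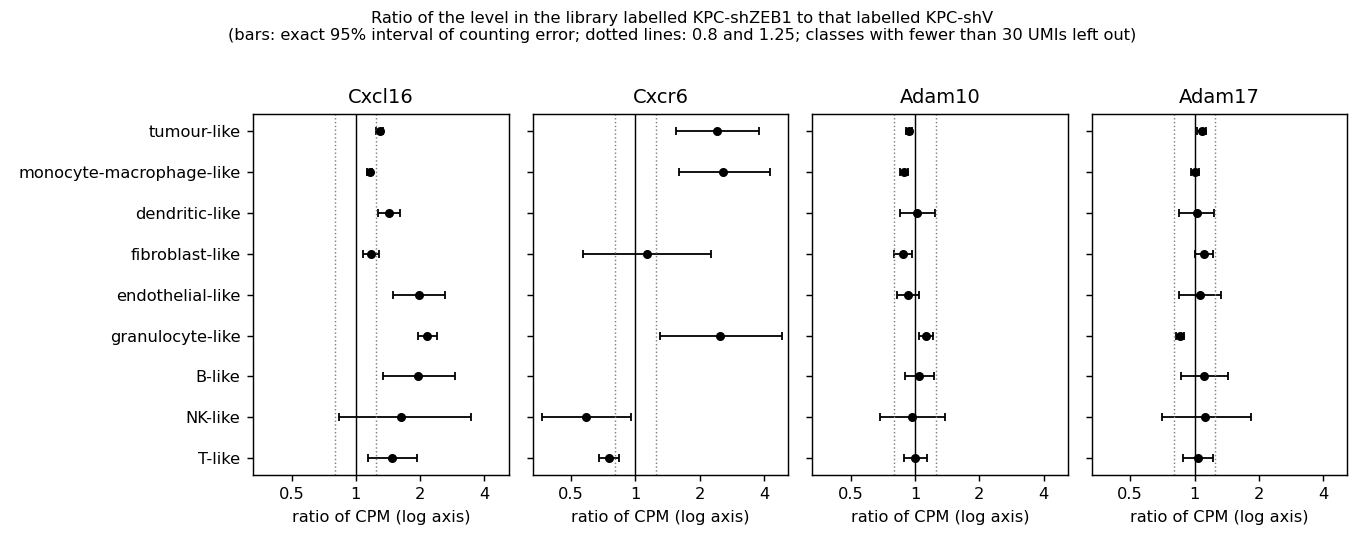
Ratio of the level in the library labelled KPC-shZEB1 over that in KPC-shV for each gene and class, on a log axis, with bars for the exact 95% interval from counting alone. Cxcl16 lies above 1 in every class plotted, Cxcr6 lies below 1 in T-like and NK-like cells, and Adam10 and Adam17 stay close to 1.

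Counted over the whole library, monocyte-macrophage-like cells held most Cxcl16 UMIs, 54.3% of 14173 in KPC-shV and 60.0% of 24649 in KPC-shZEB1. Tumour-like cells held 29.3% and 21.4%, fibroblast-like cells 7.51% and 5.01%, granulocyte-like cells 4.47% and 3.43%, and dendritic-like cells 2.49% and 6.51%. Over all kept cells Cxcl16 stood at 140 and 207 CPM, a ratio of 1.48 (1.45–1.51). That ratio was larger than the ones within the monocyte-macrophage-like, tumour-like and fibroblast-like classes, which together held most of its UMIs.

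**Figure D3:**
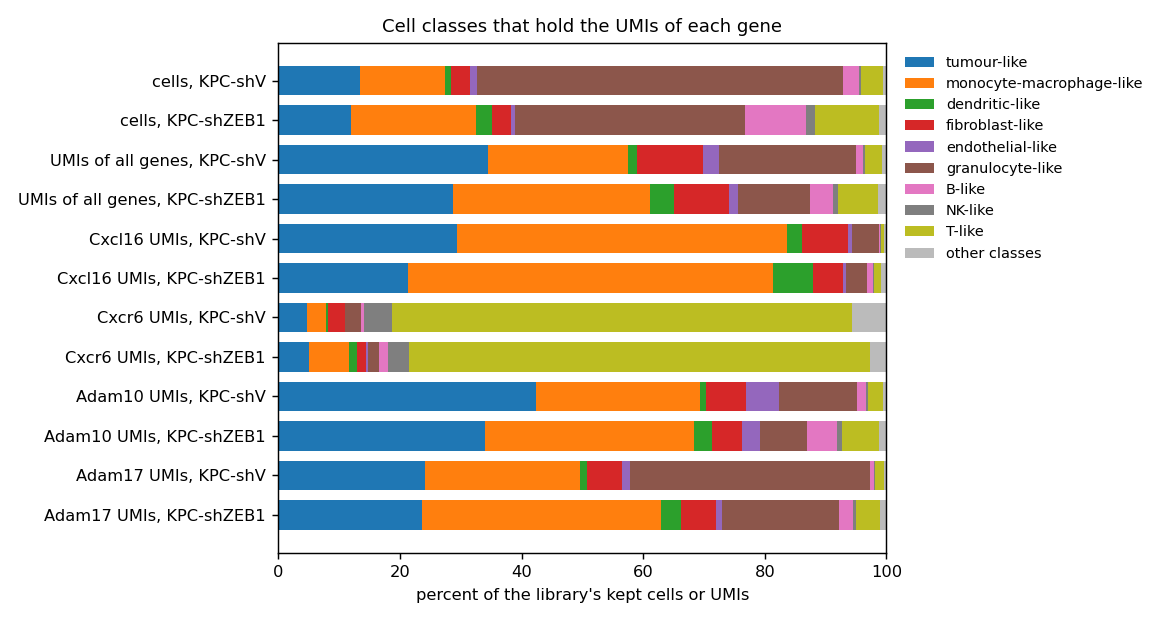
Share of each gene's UMIs that came from each cell class, in percent of the gene's UMIs over all kept cells, with 1 bar per gene and library. Monocyte-macrophage-like cells hold 54.3% and 60.0% of Cxcl16 UMIs and T-like cells 75.7% and 75.9% of Cxcr6 UMIs, while granulocyte-like cells hold 39.6% and 19.3% of Adam17 UMIs.

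Cxcr6 was a gene of T-like and NK-like cells. Its level in T-like cells was 187 CPM (171–204) in KPC-shV and 141 CPM (132–149) in KPC-shZEB1, and in NK-like cells 82.1 CPM (55.7–116) and 48.2 CPM (35.6–63.7). Outside these, the levels were 0.888 and 2.13 CPM in tumour-like cells, 0.945 and 2.42 CPM in monocyte-macrophage-like cells, 0.744 and 1.85 CPM in granulocyte-like cells, and 2.56 and 4.48 CPM in B-like cells. T-like cells were above NK-like cells and NK-like cells above all other named classes, with no overlap of intervals, in both libraries. T-like cells held 75.7% of 672 Cxcr6 UMIs and 75.9% of 1440.

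Effector CD8 T-like cells had a Cxcr6 UMI in 84.4% of cells in KPC-shV and 73.1% in KPC-shZEB1, which became 26.7% and 27.5% once cells were thinned to 1000 UMIs. Gamma-delta T-like cells had one in 87.9% and 80.7% of cells, or 51.5% and 38.6% after thinning. All T-like cells together gave 38.4% and 30.6%. Granulocyte-like cells, with median UMIs of 3147 and 2887, gave 0.247% and 0.547%, and tumour-like cells 1.84% and 4.03%, so the T-like shares stood far above what classes without the receptor gave.

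Re-clustering of the T-like and NK-like cells separated high from low Cxcr6. The gamma-delta T-like sub-cluster (33 and 57 cells) was highest of the named T-like groups, at 638 and 518 CPM, a ratio of 0.813 (0.636–1.04). Effector CD8 T-like cells, the cytotoxic lymphocytes, had 434 and 380 CPM, a ratio of 0.877 (0.734–1.05), and naive CD8 T-like cells 8.30 and 9.84 CPM. For the gamma-delta T-like and pooled effector CD8 T-like cells the interval included 1, so a difference between libraries was not detectable at this depth. Of the effector CD8 T-like sub-clusters, T4 had 439 and 412 CPM, a ratio of 0.939 (0.783–1.13). The small T13 (5 and 32 cells, 7 and 12 UMIs) had 346 and 94.6 CPM, a ratio of 0.274 (0.0993–0.820), whose interval lay below 1.

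CD4 T-like cells, the helper lineage, had 215 and 145 CPM, a ratio of 0.677 (0.545–0.845), made of unlike sub-clusters. Sub-cluster T2 had 330 CPM (253–423) and 192 CPM (162–227), a ratio of 0.583 (0.430–0.798), whereas T7 had 230 CPM (175–296) and 234 CPM (196–276), a ratio of 1.02. T5 had 0 UMIs in both libraries, which allows a share of cells with a UMI of up to 10.3% and 2.05%. The make-up of the group differed as well: of its UMIs, T5 held 21.1% in KPC-shV and 31.0% in KPC-shZEB1, T7 45.6% and 30.2%, and T2 33.3% and 38.8%. With the sub-clusters weighted alike, a step chosen after seeing the data, the CD4 T-like ratio was 0.766.

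Regulatory T-like cells (63 and 122 cells), which restrain other T cells, had 74.8 CPM (46.9–113) and 28.7 CPM (16.7–45.9), a ratio of 0.383 (0.191–0.756). Among NK-like cells, sub-cluster T10 had 195 and 150 CPM while T6 had 0 and 1 UMIs, so the NK-like level was carried by T10, whose ratio was 0.766, with an interval that included 1. T10 held 42.0% of NK-like UMIs in KPC-shV and 31.5% in KPC-shZEB1, and with both sub-clusters weighted alike the NK-like ratio was 0.779. Sub-cluster T12 was higher in KPC-shZEB1, at 319 CPM against 220 CPM, with a wide interval of the ratio (0.773–2.89).

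**Figure D4:**
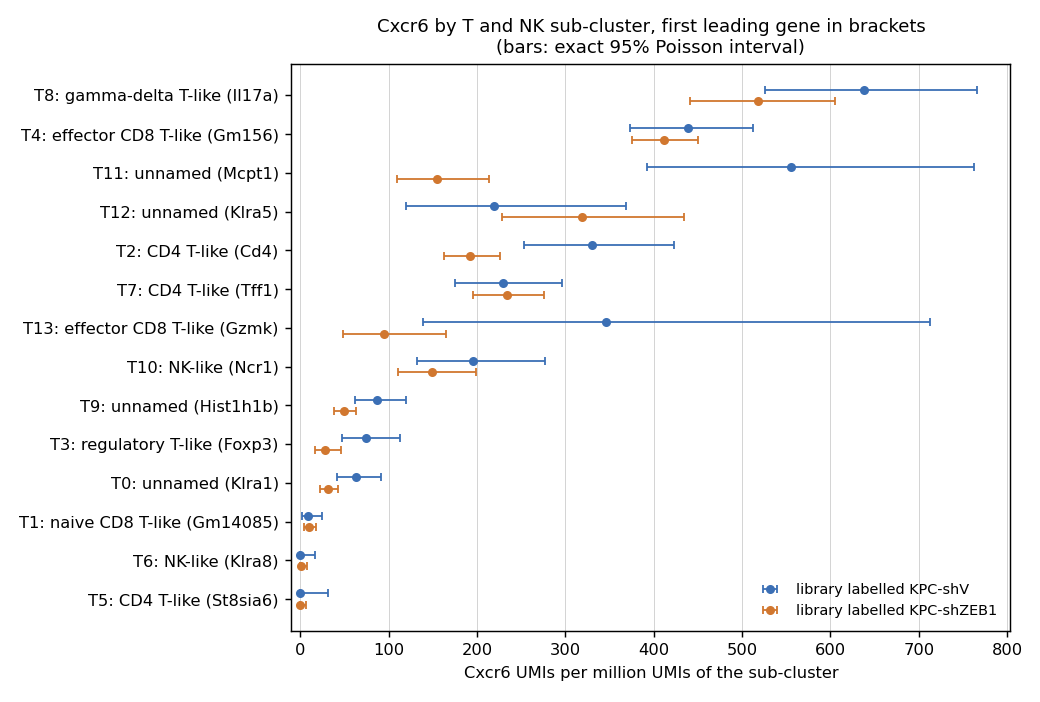
Cxcr6 level in each sub-cluster of T-like and NK-like cells, in CPM, with 1 point per library and bars for the exact 95% Poisson interval. The gamma-delta T-like sub-cluster T8 and the effector CD8 T-like sub-cluster T4 stand near the top and the naive CD8 T-like cells near 0 in both libraries, while the other effector CD8 T-like sub-cluster, T13, is at 346 CPM in KPC-shV and 94.6 CPM in KPC-shZEB1.

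Per UMI of its class, Cxcr6 was lower in the library labelled KPC-shZEB1 in T-like cells, with a ratio of 0.753 (0.678–0.839) that 11.0% of tested genes also passed downward, and in NK-like cells, with a ratio of 0.587 (0.367–0.953) where 19.1% did. In the classes that hardly hold it the ratio went the other way, at 2.40 (1.56–3.78) in tumour-like cells, 2.56 (1.60–4.28) in monocyte-macrophage-like cells, where 20.8% of tested genes were past the fold upward, and 2.48 (1.30–4.88) in granulocyte-like cells. Over all kept cells it was 12.1 CPM against 6.64 CPM, a ratio of 1.82 (1.66–2.00). With T-like sub-clusters weighted alike the T-like ratio was 0.796. The receptor was thus lower per UMI in the T-like and NK-like classes taken whole, though not in each of their sub-clusters, and higher in the library as a whole, where T-like cells were more numerous.

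Counted as cells, 254 kept cells of KPC-shV (2.23%) and 651 of KPC-shZEB1 (5.38%) had a Cxcr6 UMI. T-like cells with one were 1.37% and 3.23% of all kept cells, and effector CD8 T-like cells with one were 38 cells, 0.333% (0.236–0.457), and 125 cells, 1.03% (0.860–1.23). These shares follow the number of T-like cells captured, which has 1 value per group, and no difference between conditions can be tested from them.

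Adam10 was found in every class, with the highest level in endothelial-like cells at 279 and 258 CPM. B-like cells had 170 and 177 CPM, tumour-like cells 171 CPM and 160 CPM, and monocyte-macrophage-like cells 162 and 144 CPM. Dendritic-like cells had 96.3 and 98.9 CPM, fibroblast-like cells 85.7 and 75.1 CPM, and granulocyte-like cells 79.5 and 89.5 CPM. The range over classes was thus far narrower than for either partner of the chemokine pair, and Adam10 passed the fold in 0 of 9 classes. As an alternative, the mean UMIs per cell of each library's lowest class were taken off each cell as background. Adam10 then passed downward in tumour-like (0.443), monocyte-macrophage-like (0.0373) and endothelial-like cells (0.607). The lowest class was granulocyte-like in KPC-shV and fibroblast-like in KPC-shZEB1, with median UMIs per cell of 3147 and 28011. Far more was thus taken off each cell of KPC-shZEB1, so these ratios rest on unlike subtractions and show no fall of Adam10.

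The ratio of Adam10 between libraries was 0.938 (0.904–0.974) in tumour-like cells, 0.887 (0.851–0.925) in monocyte-macrophage-like cells and 1.13 (1.05–1.21) in granulocyte-like cells. Within the tumour-like class it was 0.933 in cluster 7, 0.889 in cluster 13, 0.869 in cluster 12 and 0.884 in cluster 18, below 1 in each, the last 2 with intervals that included 1. All these values lie within the fold, and 68.3% of tested genes had a larger ratio in tumour-like cells. In T-like cells Adam10 had 127 CPM in both libraries, a ratio of 1.00.

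Adam17 was highest, among the 9 larger classes, in granulocyte-like cells, at 241 and 206 CPM, followed by monocyte-macrophage-like cells at 153 and 154 CPM. Plasmacytoid dendritic-like cells, a small class, had 232 and 259 CPM. Tumour-like cells had 96.3 and 104 CPM, dendritic-like cells 100 and 102 CPM, and T-like cells 75.6 and 78.5 CPM. Fibroblast-like, endothelial-like and B-like cells lay between 68.2 and 81.0 CPM in both libraries. Granulocyte-like cells, the highest for Adam17, were among the lowest for Adam10.

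In granulocyte-like cells the Adam17 ratio was 0.853 (0.815–0.892), with 160 and 132 CPM in cluster 0, 239 and 229 CPM in cluster 1, 335 and 284 CPM in cluster 2, 264 and 286 CPM in cluster 3 and 255 and 204 CPM in cluster 6. The smaller clusters 16 (7 and 290 cells) and 22 (86 and 29 cells) had 527 and 169 CPM and 181 and 187 CPM. Clusters 3 and 22 were thus not lower in KPC-shZEB1, both with intervals of the ratio that included 1 (0.966–1.21 and 0.550–1.84). The libraries filled these clusters unequally: cluster 2 held 23.9% and 9.76% of granulocyte-like cells, cluster 3 22.3% and 9.78%, and cluster 1 9.80% and 33.3%. With the clusters weighted alike the ratio was 0.872. Tumour-like cells had a ratio of 1.08 (1.03–1.13), with 79.0 and 91.0 CPM in cluster 7 and 123 and 154 CPM in cluster 13, and monocyte-macrophage-like cells 1.00 (0.962–1.05). Adam17 too passed the fold in 0 of the 9 classes. With background taken off each cell it did so downward in granulocyte-like (0.390) and T-like cells (0.160). The class used as background was B-like in KPC-shV and NK-like in KPC-shZEB1, and more was taken off each cell of KPC-shZEB1. Those ratios thus rest on unlike subtractions and show no fall of Adam17. The place of Adam17 among all genes was near the middle in tumour-like cells, where 41.1% of tested genes had a larger ratio.

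The sources of protease RNA were unlike. Tumour-like cells held 42.4% of the 14041 Adam10 UMIs in KPC-shV and 34.0% of the 16100 in KPC-shZEB1, while monocyte-macrophage-like cells held 26.9% and 34.3% and granulocyte-like cells 12.9% and 7.82%. Granulocyte-like cells held 39.6% of 13947 Adam17 UMIs and 19.3% of 15022, with 25.6% and 39.3% in monocyte-macrophage-like cells and 24.1% and 23.7% in tumour-like cells. The smaller granulocyte-like share of Adam17 in KPC-shZEB1 came with fewer cells of that class, 37.8% against 60.3% of kept cells. Monocyte-macrophage-like cells, the main holders of Cxcl16, held at least 25.6% of the UMIs of the chemokine and of each protease in both libraries, which no other class did. Of the UMIs of all genes, they held 23.0% and 32.3%, tumour-like cells 34.5% and 28.8%, and granulocyte-like cells 22.6% and 11.8%. The protease shares of monocyte-macrophage-like cells thus lay much nearer to their share of all RNA than their Cxcl16 share did.

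A list of 33 genes around shedding was read beside the members, made of other ADAM proteases, tetraspanins that escort ADAM10, the iRhom cofactors of ADAM17, the convertase Furin, tissue inhibitors (Timp genes) and other shed substrates. In tumour-like cells 31 had at least 30 UMIs, and 6 were past the fold upward (19.4%, against 22.1% of all tested genes) and 3 downward (9.68%, against 11.4%). The median log2 ratio, with 1 CPM added to each level, was 0.065 for the list and 0.036 for all tested genes. Both shares were close to those of all genes. The part of free RNA from other classes in these calls was not tested.

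Among ADAM proteases in tumour-like cells, Adam8, a protease of leukocytes and invasive tumours, had 10.6 and 16.2 CPM, a ratio of 1.53, and Adam33 had 0.544 and 1.23 CPM, a ratio of 2.25 (1.28–4.10). For Adam8 the part of free RNA from leukocytes was not tested. Adam12, a protease of mesenchymal cells, had 126 and 93.9 CPM, a ratio of 0.743. Of the tetraspanins, Tspan15, which steers ADAM10 to its substrates, had 12.7 and 19.9 CPM, a ratio of 1.56, and Tspan33 had 1.78 and 3.16 CPM, a ratio of 1.78. The machinery of ADAM17 was level, with ratios of 0.998 for Rhbdf1 and 0.959 for Rhbdf2 (the iRhoms), 0.951 for Frmd8, which stabilises them, and 1.03 for Furin, which removes the pro-domain. None of these 4 passed the fold.

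Of the inhibitors, Timp3, the one best known to block ADAM17, was at 71.5 and 52.5 CPM among tumour-like cells (ratio 0.734, 0.691–0.780). It was also lower in fibroblast-like cells, at 1266 and 684 CPM, a ratio of 0.540 (0.525–0.556), in monocyte-macrophage-like cells, at 23.7 and 16.6 CPM, a ratio of 0.704 (0.627–0.790), and among granulocyte-like cells, at 29.0 and 21.9 CPM, a ratio of 0.755 (0.657–0.865). Endothelial-like cells, the other rich source, had 907 and 1015 CPM, a ratio of 1.12 (1.05–1.19). The Timp3 difference was thus largest where the level was highest outside the endothelial-like class, and T-like cells had a ratio of 1.02 (0.733–1.43). The tumour-like, monocyte-macrophage-like and granulocyte-like levels were low beside the fibroblast-like one. Col1a1, a marker of the fibroblast-like class, had a UMI in 54.9% and 69.0% of cells outside that class. The part of free RNA in those low levels was not tested. In tumour-like cells Timp4 had 1.60 and 0.526 CPM (0.328) and Timp1 164 and 196 CPM (1.19).

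Of the other substrates, Cx3cl1, the other transmembrane chemokine, had 61.7 and 25.4 CPM in fibroblast-like cells, a ratio of 0.412 (0.356–0.475). Among tumour-like cells Cx3cl1 was at 39.1 and 43.0 CPM (1.10) and Hbegf, a growth factor released by ADAM17, at 852 and 756 CPM (0.887). Cx3cr1, the receptor of Cx3cl1, had 17.4 and 27.4 CPM there, a ratio of 1.58, and L1cam, a shed adhesion molecule, 1.69 and 2.75 CPM, a ratio of 1.62. C1qa, a marker of the monocyte-macrophage-like class, had a UMI in 42.8% and 74.5% of cells outside that class. The part of free RNA in the Cx3cr1 values was not tested.

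**Figure D5:**
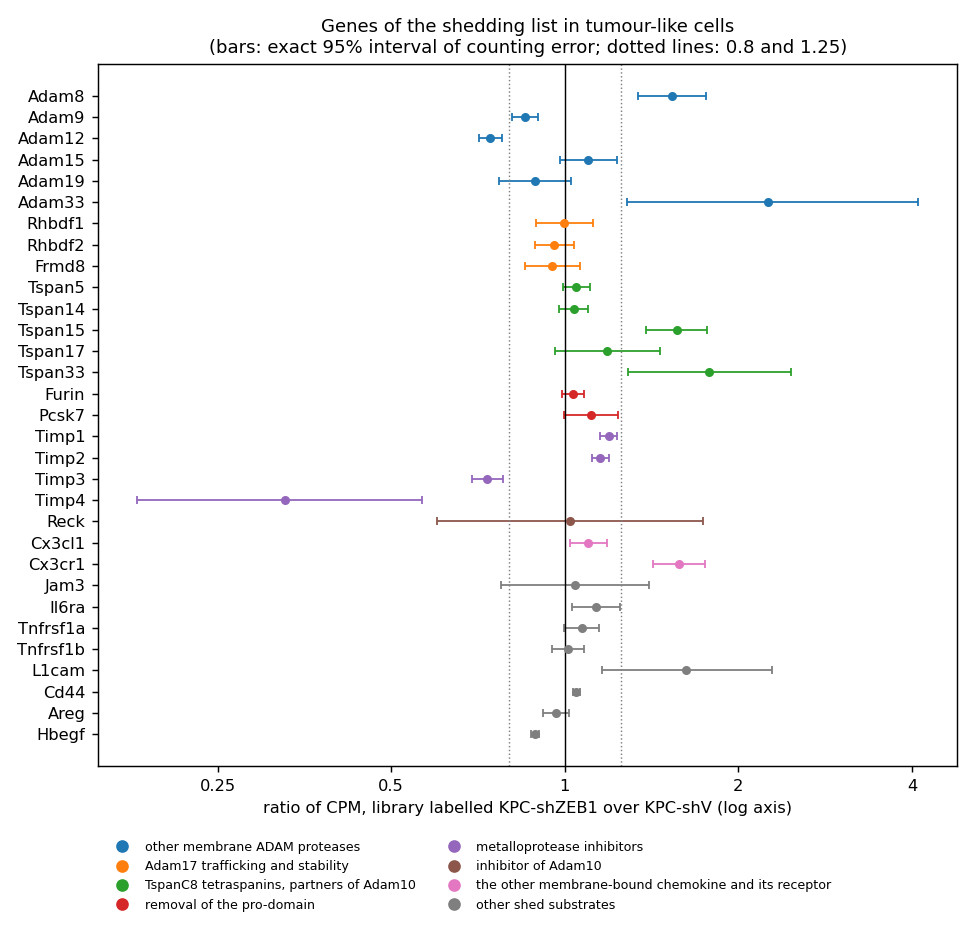
Ratio of the level in the library labelled KPC-shZEB1 over that in KPC-shV in tumour-like cells for the genes of the shedding list with at least 30 UMIs, on a log axis, with bars for the exact 95% interval from counting alone. Of 31 genes, 6 lie past the upper dotted line and 3 past the lower one, with Timp4 lowest at 0.328 and Adam33 highest at 2.25.

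In monocyte-macrophage-like cells 30 genes of the list had at least 30 UMIs. There, 4 were past the fold upward (13.3%, against 20.8% of all tested genes), namely Adam19, Adam33, Tspan33 and Areg, a growth factor released by ADAM17 that had 87.0 and 138 CPM, a ratio of 1.59. Tspan15 and Timp3 were the 2 past it downward (6.67%, against 7.6%). The intervals of Adam33 (0.890–2.28) and Tspan15 (0.469–1.11) included 1. In these classes the shares of the list lay close to or below those of all genes. Elsewhere they did not always: 8 of 14 genes were past the fold upward in NK-like cells (57.1%, against 25.4%) and 10 of 25 in dendritic-like cells (40.0%, against 23.3%). Downward, 6 of 17 were past it in effector CD8 T-like cells (35.3%, against 19.1%) and 6 of 26 in endothelial-like cells (23.1%, against 15.7%). In granulocyte-like cells 11 of 29 were past it upward (37.9%, against 46.0%).

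The genes whose levels, as log2(CPM + 1), over 9 classes and 2 libraries, 18 points, were most like those of the members by Pearson's r differed for each. For Cxcl16 they included Med29 (0.944), Shtn1 (0.922), Asah1 (0.909) and Dapk1 (0.904). Those of Cxcr6 were Ctla4 (0.989), Cd247 (0.985), Lef1 (0.983), Skap1 (0.978) and Ms4a4b (0.977). Adam10 was most like Exoc5 (0.905), Zfp326 (0.893), Ehd4 (0.860), Dnajc13 (0.854) and Ercc6 (0.850). Adam17 was most like Atp6v0c (0.977), Il1rn (0.975), Cd14 (0.957), Tnf (0.954) and Smox (0.954). Among the members themselves r was 0.319 for Cxcl16 with Adam17, -0.127 for Cxcl16 with Adam10 and -0.371 for Adam10 with Adam17, and the chemokine and its receptor had -0.45. The points share libraries and classes and are not independent, so these values are a description.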

How the data were processed

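Single-cell RNA was measured in 2 libraries, 1 per group. The authors deposited gene-by-cell count matrices of UMIs; the submitters' processing notes name Cell Ranger 7.0.1 and mm10. Cells were kept if they had 500 genes or more, between 1000 and 60000 UMIs, and no more than 15% of UMIs from mitochondrial genes, and cells with a Scrublet score over 0.2 were removed as doublets (315 and 343 cells). Of 12594 and 13271 deposited barcodes, 11398 and 12104 remained, with median UMIs of 3720 and 4252.

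Cells were clustered with scanpy 1.11.5 (3000 variable genes without the members and the shedding list, 30 principal components, 20 neighbours, leidenalg 0.10.2 at resolution 1, no integration) into 28 clusters. T-like and NK-like cells were clustered again (2000 genes, 20 components, resolution 1.5) into 14 sub-clusters. A class needed at least 3 detected markers, and the naming rules were set after the data were seen. Counts were summed per class and library and divided by the class total to give CPM; the smallest CPM at which genes entered the likeness search was 10. Intervals were computed with scipy 1.17.1 and numpy 2.4.6, and the scripts were tested on simulated data. A count of 0 was given an upper limit of 3 counts of the total. Members and lists were chosen with earlier results of these data known. Genes named are the members, Zeb1, genes of the shedding list with at least 30 UMIs in tumour-like cells, and for each member the 5 genes most alike by r, of which 1 is not reported here; the cluster-leading genes, Krt8 and other markers name classes. Alternatives changed the cell filters, doublet removal, clustering, scaling, background subtraction and the fold.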

Additional observations from a re-analysis of the deposited data

How the results depend on the processing

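Of 99 alternative values of the main comparisons, 80 stayed within counting error and 19 moved, and of 759 others 636 stayed, 122 moved and 1 reversed. The Cxcl16 ratio in tumour-like cells (1.29) was 1.38 without clusters of 1 library and 1.03 with the granulocyte-like level subtracted; that in monocyte-macrophage-like cells (1.16) was 1.22 at resolution 2, 1.94 with each library clustered alone (949 against 2294 cells, since 670 cells of KPC-shV stayed unnamed), 1.07 with the granulocyte-like level subtracted and 1.06 with clusters weighted alike. With background subtracted per cell, the tumour-like ratio of Adam10 (0.938) was 0.443 and that of Adam17 (1.08) 1.01, and the latter was 1.16 with clusters weighted alike. The class used as per-cell background differed between the libraries for both proteases and for Cxcr6, so those subtractions were unlike. The share of Cxcl16 UMIs in monocyte-macrophage-like cells was 60.9% and 65.1% with background subtracted per cell, 44.7% and 53.6% without an upper UMI limit, and 58.9% in KPC-shZEB1 without doublet removal. The share of Cxcr6 UMIs in T-like cells was 87.3% and 79.2% with background subtracted, and 71.8% in KPC-shV without an upper limit. At a fold of 1.5, 2021 genes were higher and 742 lower in tumour-like cells, against 3613 and 1861. The Cxcl16 ratio in dendritic-like cells reversed to 0.775 with each library clustered alone (37 against 399 cells), and in that setting Adam10 in monocyte-macrophage-like cells was 0.776 and Adam17 in dendritic-like cells 1.57. Subtraction of a class level, which takes more from deep classes than a floor per cell would, and equal cluster weights were chosen after seeing the data. Beyond these constructions, the cause was not tested. No value could be had for effector CD8 T-like cells with each library clustered alone. No paired analysis was possible because each group has 1 library, and for the same reason no replicate could be left out. Small sub-clusters of T-like cells have wide intervals.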

Other observations

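Cells outside the named classes also held the pair. Cluster 25, led by Erbb4, Mmp7 and Ttr and left unnamed, had 7 cells from KPC-shV and 27 cells from KPC-shZEB1, and its Cxcl16 level was 257 and 241 CPM, above that of tumour-like cells in both libraries. Sub-cluster T11, led by genes of mast cells and type 2 innate lymphocytes and left unnamed (10 and 38 cells), had a Cxcr6 level of 555 and 155 CPM, and 5 cells in each library held 97.4% and 70.3% of its UMIs. Among effector CD8 T-like cells, Cxcl16 itself was at 10.3 and 30.6 CPM, from 4 and 39 UMIs.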
